A study of Mus musculus with 10 samples.

Results

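A set of 9 genes of the spermatogonial stem cell niche were examined in samples from a study of *Rnf20* loss in Sertoli cells. They were the ligands *Gdnf*, *Kitl*, *Fgf2*, *Cxcl12* and *Csf1*, which are made by somatic cells, and the receptors *Gfra1*, *Ret*, *Kit* and *Cxcr4*, which are carried by germ cells. The 9 genes were taken by symbol, and all 9 were listed both among the 17816 genes of the day 7 table and among the 20007 genes of the adult table. RNF20 is an E3 ligase that places ubiquitin on histone H2B. In the *Amh-Rnf20-/-* mice, Cre driven by the *Amh* promoter, which is active in Sertoli cells, removes the floxed part of *Rnf20*. Sertoli cells were isolated at day 7 after birth and kept in culture, and the paper describes adherent cells taken after several passages. These cultures were compared between 2 samples from *Rnf20Flox/Flox* mice, labelled wild type, and 2 samples from *Amh-Rnf20-/-* mice. Whole adult testes were compared between 3 samples labelled wild type and 3 labelled as *Rnf20* conditional knockout, whose labels give the age as adult and name no Cre line. No label states that replicates came from separate animals, so p-values measure the spread between these samples, which may be technical.

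A stem cell niche supplies the signals that hold stem cells between self-renewal and differentiation. Sertoli cells secrete GDNF, which binds GFRA1 and signals through the kinase RET in undifferentiated spermatogonia. KIT ligand, encoded by *Kitl*, acts on the kinase KIT of differentiating spermatogonia, and Leydig cells, the steroid-producing cells between the tubules, carry KIT as well. FGF2 supports spermatogonial stem cells in culture together with GDNF. The chemokine CXCL12 acts through CXCR4 and holds cells in their niche, and CSF1 acts through CSF1R, the receptor on which macrophages depend.

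The 9 genes lie on 7 chromosomes of GRCm38.p6. By the RefSeq gene table, *Gdnf* spans chr15:7810048-7837580, *Gfra1* chr19:58235581-58455946, *Ret* chr6:118151748-118197744, *Kitl* chr10:100015615-100100416 and *Kit* chr5:75574987-75656722. *Fgf2* spans chr3:37348477-37410106, *Cxcl12* chr6:117168535-117181368, *Cxcr4* chr1:128588199-128592299 and *Csf1* chr3:107741048-107760469. *Fgf2* overlaps *Nudt6* on the opposite strand, and the handling of strand in counting is not given in the sources used here, so reads from the overlap cannot be told apart.

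RefSeq promoter entries on GRCm38.p6 matched 8 of the 9 genes, without *Ret*. The 250 bases before the start of 3 ligands are shown, because *Cxcl12* and *Csf1* lay higher at both ages in every knockout or labelled knockout sample while *Gdnf* lay lower at day 7. *Fgf2* also lay higher at both ages, and its window is not shown. Capitals mark the GC box (GGGCGG), the TATA box (TATAAA), the CCAAT box (CCAAT) and the short CRE motif (TGACG), each searched on both strands. Where 2 GC boxes overlap, the capitals run together. The windows are chr6:117168285-117168534 on the plus strand for *Cxcl12*, chr3:107760470-107760719 on the minus strand for *Csf1* and chr15:7809798-7810047 on the plus strand for *Gdnf*.
Cxcl12: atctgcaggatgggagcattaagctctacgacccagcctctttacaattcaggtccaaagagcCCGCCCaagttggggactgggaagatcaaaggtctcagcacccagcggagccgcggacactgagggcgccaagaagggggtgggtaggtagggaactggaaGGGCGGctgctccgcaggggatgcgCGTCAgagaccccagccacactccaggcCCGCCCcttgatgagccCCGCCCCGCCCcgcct
Csf1: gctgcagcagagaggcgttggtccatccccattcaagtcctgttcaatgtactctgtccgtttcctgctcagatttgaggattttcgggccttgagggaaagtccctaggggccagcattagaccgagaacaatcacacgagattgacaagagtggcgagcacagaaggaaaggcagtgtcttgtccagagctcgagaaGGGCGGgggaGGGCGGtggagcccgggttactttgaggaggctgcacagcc
Gdnf: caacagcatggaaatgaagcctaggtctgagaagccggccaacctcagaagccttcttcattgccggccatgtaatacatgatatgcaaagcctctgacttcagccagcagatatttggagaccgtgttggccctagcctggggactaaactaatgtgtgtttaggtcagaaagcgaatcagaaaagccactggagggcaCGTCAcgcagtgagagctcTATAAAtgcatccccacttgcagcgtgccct
The *Cxcl12* window holds 5 GC boxes, the most distant 187 bases and the nearest 11 bases before the start, and 1 short CRE motif at 61 bases. The *Csf1* window holds 2 GC boxes, at 51 and 41 bases. The *Gdnf* window holds no GC box, and has a TATA box at 31 bases and a short CRE motif at 50 bases. The 8 matched genes had 10 windows, since *Gdnf* and *Kit* have 2 entries each. A second *Gdnf* window, not shown, lies at chr15:7813477-7813726 and holds a CCAAT box at 120 bases and none of the other motifs. The *Fgf2* window holds a GC box at 49 bases and short CRE motifs at 140 and 6 bases. The 2 *Kit* windows start 4 bases apart and hold the same GC box. A GC box was present for 6 of the 8 genes, in 7 of the 10 windows, and in 32.7% of the 32851 windows of the same length in the RefSeq table. A TATA box was present in 3 windows (of *Gdnf*, *Kitl* and *Cxcr4*) and in 12.4% of all, a CCAAT box in 2 (of *Gdnf* and *Gfra1*) and in 33.8%, and a short CRE motif in 3 (of *Gdnf*, *Fgf2* and *Cxcl12*) and in 17.8%. These matches describe letters in the sequence and not sites of binding.

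Rounded counts summed to between 17477282 and 17705359 per sample at day 7 and to between 15431935 and 16574160 in adult testis. *Rnf20* itself was at 16.0 and 16.6 FPKM (fragments scaled by gene length and library size) in the *Rnf20Flox/Flox* cultures against 10.3 and 12.6 in those of *Amh-Rnf20-/-* mice (log2 fold change -0.49, SE 0.12, adjusted p = 0.222, edgeR). In adult testis *Rnf20* was not lower in the samples labelled knockout, at 5.76 to 9.85 FPKM against 3.32 to 4.89, with a log2 fold change of 0.12 (SE 0.27, adjusted p = 0.688, edgeR). It was called higher with total-count scaling (0.97, adjusted p = 0.0168) and by limma on log2(FPKM + 0.1) (0.97, adjusted p = 0.0152) and log2(FPKM + 1) (0.84, adjusted p = 0.0123), so these samples are called by their label. For adult *Amh-Rnf20-/-* testes the paper reports less RNF20 protein and, by quantitative PCR, less mRNA of the Sertoli cell gene *Cldn11*. In the adult samples here *Cldn11* was not lower, at 32.8, 226.6 and 293.5 FPKM in the labelled knockouts against 27.1 to 34.9 in the controls. Sertoli cell markers were present in every sample, and summed to 2664 to 2912 FPKM in the day 7 controls. Markers of peritubular myoid cells and fibroblasts were also high there, at 1959 to 2078 and 2152 to 2236 FPKM in sum. The day 7 values are therefore read as those of whole cultures. Germ cell markers were also present in the day 7 cultures, with *Dazl* at 14.2 and 15.9 FPKM in the controls and 7.69 and 8.67 in the knockouts. One knockout culture, replicate 1, stood apart at day 7, with *Cldn11*, a junction gene of Sertoli cells, at 14.01 FPKM against 150.4 in the other. Chi-square over its degrees of freedom was 34.3 within this pair and 2.65 within the control pair. The first adult sample labelled knockout also stood apart, with *Ddx4*, a germ cell marker, at 0.93 FPKM against 21.4 and 33.6 in the other two and at least 169.1 in the controls.

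**Figure D1:**
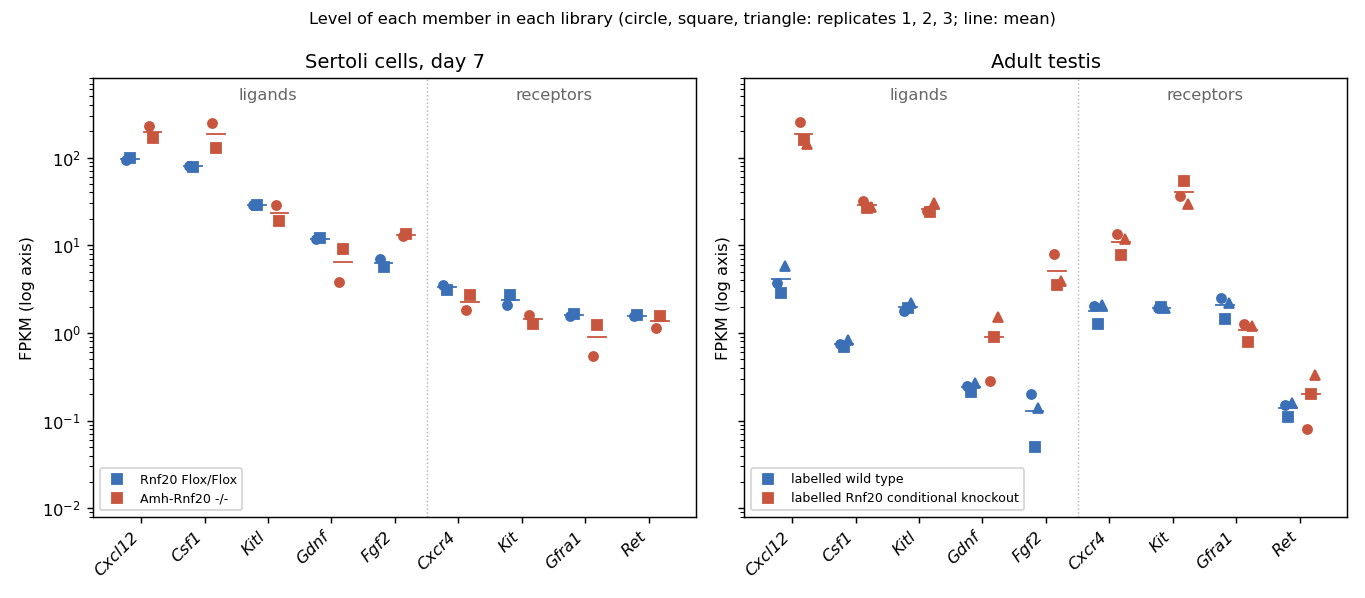
FPKM of the 9 genes in each library on a log axis, for day 7 Sertoli cells (left) and adult testis (right). Controls are in blue, knockouts (by label in adult testis) in red, and short lines mark the group means. At day 7 *Cxcl12*, *Csf1* and *Fgf2* are higher and *Gdnf*, *Gfra1*, *Kit*, *Cxcr4*, *Kitl* and *Ret* lower in both knockout samples. After TMM scaling the day 7 groups of *Kitl* and *Ret* overlap. In adult testis *Cxcl12* goes from at most 5.81 in the controls to at least 143.3 in the labelled knockouts.

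The first comparison asked whether the niche genes differ between day 7 Sertoli cell cultures of *Amh-Rnf20-/-* and *Rnf20Flox/Flox* mice. In the day 7 cultures 3 ligands, *Cxcl12*, *Csf1* and *Fgf2*, lay higher in both *Amh-Rnf20-/-* samples, and *Gdnf* and the receptors *Gfra1*, *Kit* and *Cxcr4* lay lower in both. None of the 9 genes passed the test at an adjusted p under 0.05 (edgeR's quasi-likelihood test), and neither did any other gene (0% of 12880). At an unadjusted p under 0.05 there were 4 of 9 (*Fgf2*, *Cxcl12*, *Csf1* and *Kit*) against 15.5% of all genes tested, and DESeq2 called 3 of 9 (*Fgf2*, *Cxcl12* and *Csf1*) against 4.5%. In bulk samples such as these, fewer cells of a type and less RNA per cell cannot be told apart.

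*Cxcl12* had the highest level of the 9 genes in the *Rnf20Flox/Flox* cultures, at 93.9 and 99.8 FPKM, and stood at 230.5 and 165.5 in the *Amh-Rnf20-/-* cultures. Both knockout values lay above both controls, and the log2 fold change was 1.04 (SE 0.20, adjusted p = 0.165). *Csf1* was next, at 80.9 and 77.6 FPKM in the controls and 245.8 and 130.3 in the knockouts. Its groups were also apart, with the first knockout sample well above the second, and the log2 fold change was 1.30 (SE 0.32, adjusted p = 0.213). *Fgf2* was at 7.00 and 5.61 FPKM in the controls and at 12.6 and 13.5 in the knockouts, which is a log2 fold change of 1.12 (SE 0.15, adjusted p = 0.132). Its knockout samples were close to each other, unlike those of *Csf1*. *Nudt6*, which overlaps *Fgf2*, had a log2 fold change of 0.42 (adjusted p = 0.302).

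*Gdnf* was at 11.8 and 12.04 FPKM in the controls and at 3.83 and 9.08 in the knockouts. Both knockout values were below both controls and the spread between them was wide, so the log2 fold change of -0.85 had an SE of 0.39 (adjusted p = 0.387). *Kitl* was at 29.1 and 28.7 FPKM in the controls and at 28.4 and 18.7 in the knockouts, and its log2 fold change was -0.25 (SE 0.22, adjusted p = 0.627). The first knockout sample was level with the controls, and after TMM scaling its *Kitl* count of 150.2 CPM lay above those of the controls (149.6 and 146.2).

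The receptors were low in these cultures. *Cxcr4* was at 3.52 and 3.08 FPKM in the controls and 1.84 and 2.69 in the knockouts, with a log2 fold change of -0.51 (SE 0.27, adjusted p = 0.434). *Kit* was at 2.07 and 2.70 FPKM in the controls and 1.59 and 1.28 in the knockouts, with a log2 fold change of -0.69 (SE 0.22, adjusted p = 0.274). *Gfra1*, the GDNF-binding receptor, was at 1.55 and 1.66 FPKM in the controls and 0.55 and 1.24 in the knockouts, with a log2 fold change of -0.82 (SE 0.42, adjusted p = 0.420). The groups did not overlap for these 3 receptors. *Ret* was at 1.57 and 1.59 FPKM in the controls and 1.15 and 1.56 in the knockouts, with a log2 fold change of -0.17 (SE 0.19, adjusted p = 0.726), and its groups overlapped on TMM-scaled counts. On that scale the knockouts lay above the controls for 3 of the 9 genes, where 24.8% of all genes did, and below them for 4, where 26.1% did. Median log2 changes were 1.04 over the 5 ligands, -0.60 over the 4 receptors and -0.0039 over all genes tested.

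In the *Rnf20Flox/Flox* cultures the order of the mean FPKM was *Cxcl12*, *Csf1*, *Kitl*, *Gdnf*, *Fgf2*, *Cxcr4*, *Kit*, *Gfra1* and *Ret*, and only *Gfra1* and *Ret* overlapped as neighbours. In the *Amh-Rnf20-/-* cultures *Fgf2* stood above *Gdnf* in both samples, and *Cxcl12* and *Csf1* overlapped.

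The size of the difference depended on which *Amh-Rnf20-/-* sample was kept. Without the first of them, edgeR called 6 of the 9 genes (*Fgf2*, *Cxcl12* and *Csf1* higher, *Gdnf*, *Kit* and *Kitl* lower), where it called 21.5% of all genes. Without the second it also called 6 (*Fgf2*, *Cxcl12* and *Csf1* higher, *Gdnf*, *Gfra1* and *Cxcr4* lower), where it called 39.9%. In these fits the spread comes from the control pair, and the lone knockout sample is assumed to vary like it. The log2 fold change of *Gdnf* was -0.38 without the first sample and -1.56 without the second, and that of *Gfra1* was -0.35 and -1.53. *Fgf2* moved least among the 3 higher ligands, at 1.28 and 0.94.

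**Figure D2:**
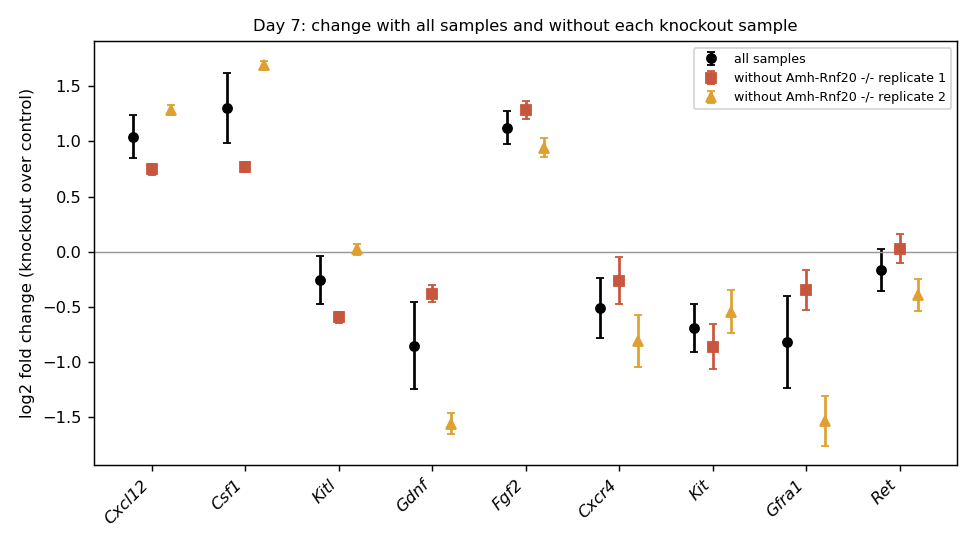
Log2 fold change (*Amh-Rnf20-/-* over *Rnf20Flox/Flox*) of each gene at day 7 with its standard error, for all samples (black circles) and without each knockout sample (red squares, yellow triangles). *Gdnf* and *Gfra1* depend most on which knockout sample is kept, and *Kitl* goes from -0.59 to 0.02.

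Markers of several cell types also lay apart in the culture, though edgeR called none with all samples. Of 14 Sertoli cell markers, 10 lay lower and 1 higher in both *Amh-Rnf20-/-* samples, and their summed level was 2664 to 2912 FPKM in the controls and 1816 to 2167 in the knockouts. Of 10 spermatogonial markers 8 lay lower (191 to 201 against 134 to 140 FPKM in sum), while all 7 peritubular myoid markers (1959 to 2078 against 3613 to 3664) and all 6 fibroblast markers (2152 to 2236 against 3306 to 3920) lay higher. All 3 spermatocyte and spermatid markers tested lay lower (6.75 to 9.19 against 4.44 to 4.78 FPKM over the 6 listed), of which *Hormad1* reached 0.5 FPKM in the controls alone. Of the 4 Leydig cell markers tested 3 lay higher and none lower (149 to 156 against 205 to 301 FPKM over all 6 listed). Of the 4 endothelial markers tested 1 lay higher and 1 lower (33.6 to 36.2 against 35.8 to 50.5 over all 6), and of the 3 macrophage markers tested 1 lay higher (26.6 to 31.5 against 29.8 to 53.7 over all 8). *Zbtb16*, among the lower spermatogonial markers, also reached 0.5 FPKM in the controls alone. *Rhox5*, the higher Sertoli cell marker, and *C1qa*, the higher macrophage marker, reached it in the knockouts alone. Each of these could hardly count in the other direction. Higher and lower here mean that the TMM-scaled counts of the groups shared no range, as for 51% of all genes (24.8% higher, 26.1% lower), so that the endothelial and macrophage counts are near the share of all genes. No marker was at 0 in every sample, and the part of these markers in the niche gene values was not tested. Relative to the mean of the Sertoli cell markers on the log2(FPKM + 0.1) scale, *Gdnf* differed by -0.19 and *Kitl* by 0.48 between the groups, against 1.82 for *Cxcl12*, 1.98 for *Csf1* and 1.86 for *Fgf2*. The last 3 were 1.05, 0.99 and 1.37 without the first knockout sample and 2.60, 2.98 and 2.35 without the second. With any 1 sample left out *Gdnf* lay between -0.31 and -0.078, while *Kitl* changed sign, between -0.35 and 1.32. Relative to the spermatogonial markers, *Kit* differed by -0.0068, *Gfra1* by -0.18 and *Ret* by 0.46. With 1 sample left out, *Kit* went from -0.49 to 0.47 and *Gfra1* from -0.37 to 0.0042, while *Ret* lay between 0.33 and 0.59. With 2 samples against 2 an exact two-sided permutation test cannot give a p under 0.333, and it gave 0.333 for *Gdnf*, *Cxcl12*, *Csf1*, *Fgf2* and *Ret*, 0.667 for *Gfra1* and 1 for *Kitl* and *Kit* (adjusted over the 8 values, 0.533 to 1).

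The second comparison was made in adult testis, where 7 of the 9 genes passed the filter on low values (an FPKM of at least 0.5 in 3 samples) and *Gdnf* and *Ret* did not. *Cxcl12*, *Csf1*, *Fgf2*, *Kitl*, *Kit* and *Cxcr4* rose in the testes labelled knockout, by 3.40-fold for *Cxcr4* up to 22.9-fold for *Cxcl12*, and *Gfra1* fell. All 7 were called at an adjusted p under 0.05 (edgeR), 6 higher and 1 lower, where 81.5% of all genes were called, 40.9% higher and 40.6% lower. Since most genes were called, the calls were not particular to the niche genes. No control reached 0.5 FPKM for *Fgf2*, which passed the filter through the labelled knockouts alone and so could hardly count as lower. Without it 6 genes were called, 5 higher and 1 lower. The thresholds of the study, a log2 fold change beyond 1 and an adjusted p under 0.001, were passed by 5 of the 7 (*Cxcl12*, *Csf1*, *Fgf2*, *Kitl* and *Kit*, all higher) and by 46.7% of all genes, 23% higher. This count was less stable than the calls, with 3, 2 and 3 genes without control replicate 1, 2 and 3, 4 without labelled knockout replicate 2 or 3, 7 without labelled knockout replicate 1 and none with the replicate number as a block, where no gene in the table passed. The groups did not overlap for any of the 7 on TMM-scaled counts, as for 85.5% of all genes (42.4% with the labelled knockouts above and 43.1% with them below). Median log2 changes were 4.32 over the 4 tested ligands (4.38 without *Fgf2*), 1.77 over the 3 tested receptors and 0.01 over all genes.

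*Cxcl12* was at 3.68, 2.83 and 5.81 FPKM in the controls and at 252.5, 159.5 and 143.3 in the testes labelled knockout. Every labelled knockout value was far above the controls, and the log2 fold change was 4.52 (SE 0.38, adjusted p = 0.000107). *Csf1* was at 0.75, 0.69 and 0.83 FPKM in the controls and at 32.3, 26.4 and 27.4 in the labelled knockouts, which is a log2 fold change of 4.38 (SE 0.18, adjusted p = 2.73e-05). Both groups were narrow for this gene, unlike in the day 7 cultures. *Fgf2* was at 0.20, 0.05 and 0.14 FPKM in the controls, from 5 to 20 counts, and at 7.91, 3.51 and 3.91 in the labelled knockouts, with a log2 fold change of 4.25 (SE 0.59, adjusted p = 0.000771). *Nudt6*, on its opposite strand, rose as well, by 1.99 on the log2 scale (adjusted p = 0.000758). *Kitl* was at 1.76, 1.91 and 2.20 FPKM in the controls and at 24.5, 23.7 and 29.99 in the labelled knockouts, with a log2 fold change of 2.88 (SE 0.15, adjusted p = 3.17e-05).

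*Kit* was at 1.92, 1.96 and 1.95 FPKM in the controls and at 36.9, 53.8 and 29.7 in the labelled knockouts, which is a log2 fold change of 3.51 (SE 0.27, adjusted p = 7.56e-05). Among the 9 genes, its mean level came after that of *Cxcl12* alone in the labelled knockouts. Spermatids make a shortened *Kit* transcript, which whole-gene counts do not separate from the receptor. *Cxcr4* was at 2.05, 1.26 and 2.09 FPKM in the controls and at 13.5, 7.74 and 11.8 in the labelled knockouts, with a log2 fold change of 1.77 (SE 0.31, adjusted p = 0.00223). *Gfra1* was at 2.52, 1.45 and 2.21 FPKM in the controls and at 1.27, 0.78 and 1.21 in the labelled knockouts. All 3 of the latter were lower than every control, and the log2 fold change was -1.76 (SE 0.30, adjusted p = 0.00181).

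*Gdnf* was at 0.25, 0.21 and 0.27 FPKM in the adult controls and at 0.28, 0.91 and 1.54 in the testes labelled knockout, which rests on 11 to 15 counts per control and 16, 51 and 78 counts per labelled knockout. The first labelled knockout was next to the controls on this scale and below all 3 of them on TMM-scaled counts (0.791 against 0.947 to 1.22 CPM), and the other two stood above on both. In a fit without the filter its log2 fold change was 1.03 (adjusted p = 0.152). *Ret* was at 0.15, 0.11 and 0.16 FPKM in the controls and at 0.08, 0.20 and 0.33 in the labelled knockouts, from 9 to 36 counts, and its groups overlapped. In the same fit its log2 fold change was -0.31 (adjusted p = 0.613).

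**Figure D3:**
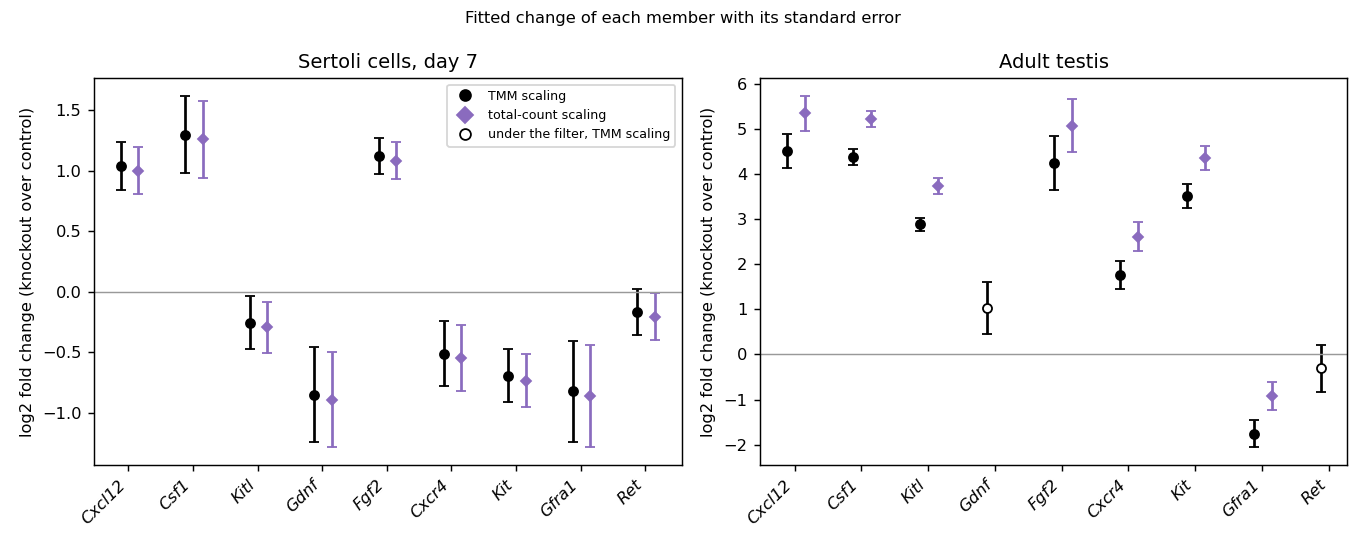
Log2 fold change (knockout, by label in adult testis, over control) with its standard error at day 7 (left) and in adult testis (right). TMM scaling is in black and total-count scaling in purple. Open circles are *Gdnf* and *Ret*, which were under the filter in adult testis, and scaling by total counts raises the adult values by about as much as the median gene (0.87 on the log2 scale).

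Scaling shifted all adult values together. The TMM factors were 0.711 to 0.761 in the controls and 1.27 to 1.42 in the labelled knockouts, and the median gene stood at 0.01 on the log2 scale with TMM, -0.19 with RLE and 0.87 with total counts. With total counts *Cxcl12* was at 5.35, *Cxcr4* at 2.61 and *Gfra1* at -0.92 (adjusted p = 0.0307), so all 7 genes kept their direction and their call. Over all alternatives the adjusted p of *Gfra1* was between 1.86e-08 and 0.0354, and that of *Cxcl12* between 1.15e-24 and 0.00225. Without the first labelled knockout, all 7 were called again, where 86.4% of all genes were.

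In the adult controls *Cxcl12* was the highest of the 9 genes, followed by *Gfra1*, *Kitl*, *Kit* and *Cxcr4*, whose neighbours in that order overlapped. *Csf1*, *Gdnf*, *Ret* and *Fgf2* were each under 1 FPKM, with *Ret* and *Fgf2* overlapping. In the labelled knockouts *Cxcl12* was again the highest, *Kit*, *Csf1* and *Kitl* came next with overlapping ranges from neighbour to neighbour, and *Gfra1*, *Gdnf* and *Ret* were the lowest.

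Most cell type marker lists differed in the adult comparison, counted here as markers with no shared range between groups in TMM-scaled counts, beside their summed FPKM. Of all genes 85.5% had no shared range, 42.4% higher and 43.1% lower, and the 6 of 14 Sertoli cell markers that were higher are near that share. Spermatocyte and spermatid markers summed to 120782 FPKM or more in each control and to between 2.82 and 157.9 in the labelled knockouts, with 10 of 10 lower in every labelled knockout, of which *Sycp1* and *Hormad1* did not pass the edgeR test (adjusted p = 0.0638 and 0.0557). Leydig cell markers (6 of 6, 3997 to 5602 against 63070 to 87434 FPKM), fibroblast markers (6 of 6, 40.5 to 53.4 against 1303 to 3390) and endothelial markers (6 of 6, 2.38 to 2.52 against 29.9 to 48.0) were higher. So were 7 of 8 macrophage markers (659 to 746 against 1756 to 2789 over all 8), while *Aif1* was lower. *Aif1* held most of the macrophage sum in the controls, with a mean of 627.8 FPKM against 36.6 in the labelled knockouts. Of 7 myoid markers 5 were higher and 1, *Actg2*, lower (294 to 367 against 205 to 419 over all 7). *Actg2* held most of the myoid sum in the controls, with a mean of 289.5 FPKM against 2.50 in the labelled knockouts, so these sums mainly reflect that gene in the controls. Of 14 Sertoli cell markers 6 were higher and 1, *Rhox5*, lower (1047 to 1359 against 3400 to 9743), and of the 9 spermatogonial markers tested 1 was higher and 5 were lower (508 to 549 against 11.0 to 479), of which *Dazl* and *Tex101* did not pass the edgeR test. The higher one, *Zbtb16*, and the macrophage marker *Cd163* and endothelial markers *Kdr* and *Tie1* reached 0.5 FPKM in the labelled knockouts alone. *Tex101* and *Ddx4* held most of the spermatogonial sum in the controls, with means of 248.8 and 183.5 FPKM. Their means in the labelled knockouts were 46.8 and 18.6 FPKM, so the spermatogonial sums mainly reflect these genes in the controls. The part of these shifts in the niche gene values was not tested.

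The first labelled knockout differed from the other two in these lists. Its *Sox9* was at 1.20 FPKM and its *Cldn11* at 32.8, near the controls (1.37 to 2.34 and 27.1 to 34.9), against 9.86 and 12.7 and against 226.6 and 293.5 in the other two. *Sall4* and *Nanos3*, spermatogonial markers, were listed at 0 in it, and *Dazl* was at 0.51. In that library *Gdnf* was at 0.28 FPKM, near the controls, while *Gfra1* was at 1.27, *Kit* at 36.9 and *Cxcr4* at 13.5, no lower than in at least one of the other two. *Cxcl12*, *Csf1* and *Fgf2* had their highest adult values there, as did the fibroblast marker *Dcn* at 3024 FPKM against 1109 and 1053.

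**Figure D4:**
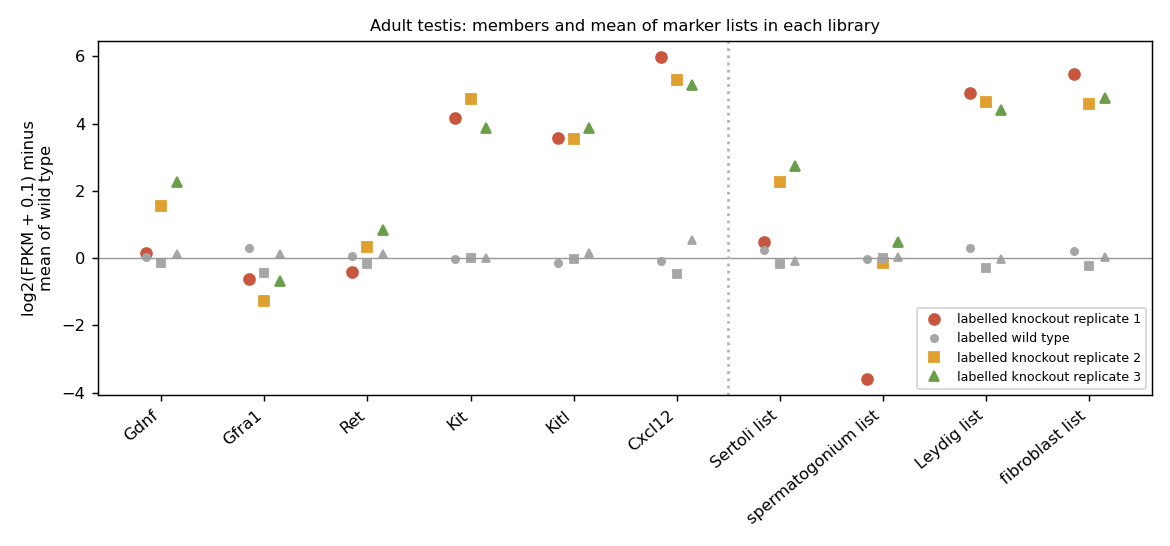
Log2(FPKM + 0.1) minus the mean of the wild type samples, for 6 niche genes and for the means of 4 marker lists in each adult library, with wild type in grey and the 3 libraries labelled knockout in colour. Replicate 1 lies far below the others for the spermatogonium list and near the controls for *Gdnf* and the Sertoli list, while *Kit*, *Kitl* and *Cxcl12* are high in all 3.

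Relative to the Sertoli cell markers, *Gdnf* was lower in the labelled knockouts, by 0.50 on the log2(FPKM + 0.1) scale, with each labelled knockout (-5.91, -6.29 and -6.06) below each control (-5.80, -5.57 and -5.40). The other ligands were higher relative to the same markers, *Cxcl12* by 3.66, *Csf1* by 3.25, *Fgf2* by 2.64 and *Kitl* by 1.85, without overlap. For each of these 5 the exact permutation p was 0.1 (two-sided), the smallest that 3 samples against 3 allow (adjusted over 8 values, 0.114). The first labelled knockout had the highest of these values, and without it the differences were 2.73 for *Cxcl12*, 2.49 for *Csf1*, 1.61 for *Fgf2* and 1.21 for *Kitl*. With a pseudocount of 1 the difference of *Fgf2* was 0.59 and its groups overlapped (exact p = 1), *Csf1* was at 2.30, and *Gdnf* was at -1.21 (-0.24 on estimated counts). On the same scale the mean of the spermatogonial markers itself lay at -3.60, -0.14 and 0.47 in the labelled knockouts, relative to the controls. *Kit* was higher by 5.35 relative to the spermatogonial markers, at 6.23, 3.32 and 1.84 against -1.59 to -1.53, and by 4.13 without the first labelled knockout (exact p = 0.1 with all samples). *Ret* was higher by 1.34 (exact p = 0.1), at -1.45 in the first labelled knockout and -4.17 and -4.27 in the other two against -4.82 to -4.54 in the controls. Without the first the difference was 0.42, and with a pseudocount of 1 it was 0.92 (exact p = 0.3). *Gfra1* differed by 0.23 (exact p = 1), with the first labelled knockout at 1.48 and the other two at -2.62 and -2.66 against -1.94 to -1.15 in the controls. Without that library the difference was -1.14.

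Ratios of a ligand to its receptor were taken within a sample, where the scaling between samples acts only through the added 0.1 FPKM, which matters for genes as low as adult *Gdnf* and *Ret*. The log2 ratio of *Cxcl12* to *Cxcr4* was 4.70 and 4.97 in the day 7 controls and 6.89 and 5.89 in the knockouts, and 0.81, 1.11 and 1.43 in the adult controls against 4.22, 4.35 and 3.59 in the labelled knockouts. It was higher by 1.56 at day 7 (exact permutation p = 0.333) and by 2.93 in adult testis (exact permutation p = 0.1), with no overlap at either age. *Gdnf* to *Gfra1* was 2.86 and 2.79 against 2.60 and 2.78 at day 7, and -2.90, -2.32 and -2.64 against -1.85, 0.20 and 0.32 in adult testis. The day 7 groups differed by -0.13 and the adult groups by 2.18 (exact permutation p = 0.1). The adult difference was 1.11 with a pseudocount of 1 and 2.88 without the first labelled knockout. *Gdnf* to *Ret* was 2.84 in both controls and 1.65 and 2.47 in the knockouts at day 7, a difference of -0.78 that was -0.37 without the first knockout sample and -1.19 without the second. In adult testis the same ratio was higher by 1.07 (0.49 with a pseudocount of 1), and the groups did not overlap at either age. *Kitl* to *Kit* was higher by 0.37 at day 7 (0.17 to 0.56 with 1 sample left out), and in adult testis the groups overlapped, with -0.12, -0.04 and 0.17 against -0.59, -1.18 and 0.01 (exact permutation p = 0.3). With 4 ratios per age, the adjusted p was 0.333 for each at day 7 and 0.133 for the 3 that did not overlap in adult testis.

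**Figure D5:**
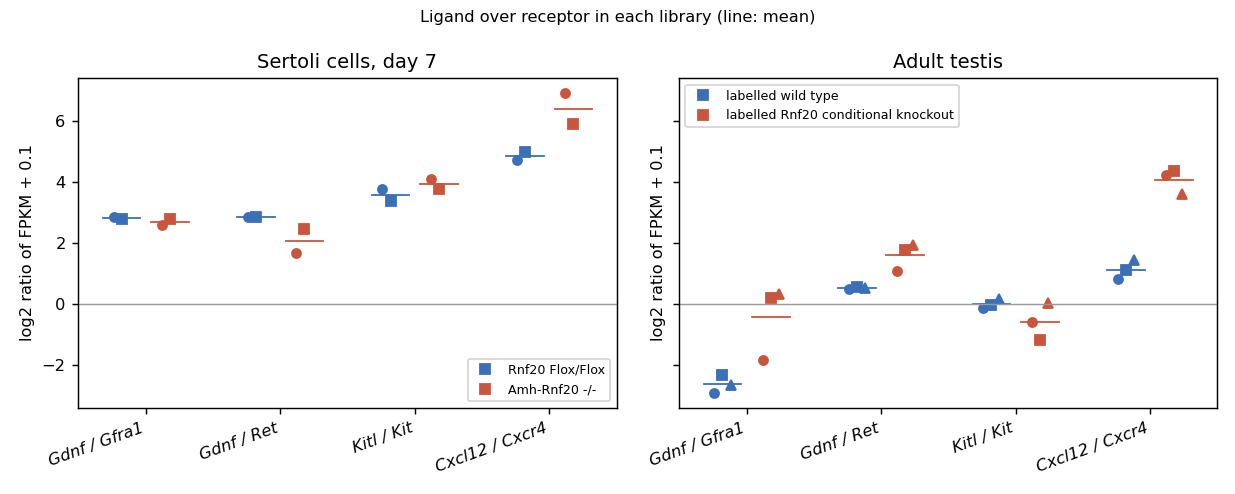
Log2 ratio of ligand to receptor (FPKM + 0.1) in each library at day 7 and in adult testis, with short lines at the group means. *Cxcl12* to *Cxcr4* is higher in every knockout sample at day 7 and in every labelled knockout in adult testis, where *Kitl* to *Kit* overlaps.

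Other genes of the same pathways were counted from lists that leave out the 9 niche genes themselves. The lists were chosen by function, with earlier results of these data known. At day 7 no gene of these lists was called by edgeR, as for all genes. In adult testis 81.5% of all genes tested were called, 40.9% higher and 40.6% lower, and against these shares all 5 tested genes of the GDNF family and its receptors fell, including *Gfra2*, the receptor of neurturin, from 14.96 to 20.97 FPKM in the controls to 0.16 to 0.44 in the labelled knockouts (log2 fold change -6.45, adjusted p = 4.225e-05), and *Artn*, a ligand of the family (-4.32). *Gfra2* reached 0.5 FPKM in the controls alone, so that it could hardly count as higher. Of 7 genes that respond to GDNF in spermatogonial stem cells, 2 rose (*Egr2*, 2.67, and *Etv5*, 1.504), 3 fell (*Lhx1*, *Egr3*, -4.93, and *Id4*, -2.18) and 2 did not pass. *Lhx1* was at 0.98 to 2.21 FPKM in the controls and at 0 to 0.05 in the labelled knockouts, and passed the filter through the controls alone, as *Egr2* did through the labelled knockouts. The median of this list was -0.17, and it changed sign to 0.67 with total counts.

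In a list that joins KIT signalling genes with regulators of differentiating spermatogonia, 8 of 12 genes rose and 2 fell, beside the 40.9% and 40.6% of all genes. The regulatory subunit gene *Pik3r1* (3.79), the phosphatases *Ptpn6* (3.15) and *Ptpn11* (2.51) and the adaptor *Grb2* (2.57) rose, and *Cbl*, a ubiquitin ligase for receptor kinases, fell by 2.50 on the log2 scale. *Sohlh1*, a transcription factor of differentiating spermatogonia, fell by 2.25, and *Stra8* had a log2 fold change of -0.13 (SE 1.32). *Sohlh1* is also among the spermatogonial markers counted above. *Pik3r1* did not reach 0.5 FPKM in any control. Of 13 tested FGF genes 11 rose and none fell (40.9% and 40.6% of all genes), among them the receptors *Fgfr2* (4.90) and *Fgfr1* (3.36), the ligand *Fgf1* (4.72) and the feedback inhibitor *Spry2* (3.43). For 5 of the 11 (*Fgf1*, *Fgf7*, *Fgf10*, *Spry2* and *Spry4*) no control reached 0.5 FPKM, so that they passed the filter through the labelled knockouts alone and could hardly count as lower. *Fgfr2*, at a mean of 0.40 FPKM in the controls, was also near that limit. Of the other 8 tested genes 6 rose and none fell, where 37.8% and 41% did among the 13515 genes that reached 0.5 FPKM in at least 1 sample of each group. *Csf1r*, the CSF1 receptor, was at 1.68 to 2.42 FPKM in the adult controls and at 57.1 to 81.9 in the labelled knockouts (log2 fold change 4.24), while at day 7 it was at 1.47 and 1.79 against 1.86 and 1.81. *Il34*, the other ligand of CSF1R, and *Ackr3*, a second receptor for CXCL12, rose by 3.46 and 1.85, and *Il34* too did not reach 0.5 FPKM in any control. These values stand beside the rise of the macrophage markers given above.

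Over the 10 samples, each age centred on its own controls, the genes whose log2(FPKM + 0.1) was most like that of *Kit* among 12378 genes were *Nfs1*, *Fbxo8* and *Cd1d1*, with Pearson's r between 0.996 and 0.997. The samples form groups, so this likeness mostly describes the difference between adult groups, and no test was made of it. For *Gdnf*, which did not pass the filter of the adult table, no likeness is given.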

How the data were processed

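RNA enriched with oligo(dT) was sequenced on the BGISEQ platform from cultured day 7 Sertoli cells (2 samples against 2) and adult testes (3 against 3). The authors used HISAT for mapping to GRCm38.p6, Bowtie2 for mapping to reference genes and RSEM for FPKM, with versions and strand not given in the sources used here. The paper describes 3 individuals in each day 7 group and no adult RNA-seq, and the labels' growth protocol names adult tissue throughout, so the adult processing is known only from its column names. The deposited estimated counts are not normalized and were rounded. The deposited FPKM values are scaled by gene length and depth, and the deposited TPM values, which have the same sum in each sample, entered no test. The adult file also has 20 empty columns, which were left out.

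The tables were fitted separately by edgeR's quasi-likelihood test with TMM scaling, and p-values were adjusted by Benjamini-Hochberg over the genes reaching 0.5 FPKM in 2 samples at day 7 (12880 of 17816) or 3 in adult testis (15919 of 20007). Genes with an adjusted p under 0.05 were called. An SE is the log2 fold change over the root of the test statistic. Ratios used log2(FPKM + 0.1) and exact permutation tests. The edgeR fits were also run on simulated counts drawn at the fitted dispersions. The outcome is not given here, and no outlying sample was simulated, so this does not vouch for the day 7 fits. The members and lists were chosen with earlier results of these data known. By rule, all 9 genes and up to 4 called genes per list with the largest changes are named, and others (*Sohlh1*, *Stra8*, *Nudt6*, marker genes, and further genes of the lists) were chosen after their values were seen. The number of samples per group (2 or 3) limits the precision, and so does the depth for the adult values of *Gdnf*, *Ret* and *Fgf2*, which rest on few counts. Alternatives covered scaling, filter, DESeq2, limma, pseudocounts, the replicate number as a block and each sample left out. Tools were R 4.3.3, edgeR 4.0.16, DESeq2 1.42.0, limma 3.58.1, Python 3.11.15, numpy 2.4.6, pandas 2.3.3 and matplotlib 3.10.9.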

Additional observations from a re-analysis of the deposited data

Results flagged for a closer look

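For 4 of the 9 niche genes every knockout sample lay below every control at day 7 on the FPKM scale, and every labelled knockout lay above every control in adult testis. Of the 12871 genes that passed the day 7 filter and were listed at both ages, 31.1% lay below at day 7, 63.1% above in adult testis and 18.4% both. None of the 4 passed the test at day 7 (edgeR, adjusted p = 0.387 for *Gdnf*, 0.627 for *Kitl*, 0.274 for *Kit* and 0.434 for *Cxcr4*), and in adult testis *Gdnf* was under the filter (adjusted p = 0.152 without it). The ratio of the mean FPKM, knockout or labelled knockout to control, was 0.541 at day 7 and 3.74 in adult testis for *Gdnf*. It was 0.815 and 13.3 for *Kitl*, 0.602 and 20.7 for *Kit*, and 0.686 and 6.12 for *Cxcr4*. On TMM-scaled counts the opposite directions held for *Kit* and *Cxcr4*, whereas the day 7 groups of *Kitl* and the adult groups of *Gdnf* overlapped. On that scale 26.1% of the genes tested lay below at day 7 and 42.4% above in adult testis, and the share with both is not given here. The difference between the ages was not tested, because cultured cells and whole testes were in separate tables.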

How the results depend on the processing

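All 7 tested niche genes kept their call and direction in adult testis under all 14 alternatives at an adjusted p under 0.05, while the number past the study's thresholds was 5 and went from 2 to 7 with 1 sample left out and to 0 with the replicate block. At day 7 the number called was 0 with every alternative on all samples except DESeq2, which called 3, and between 0 and 6 when 1 sample was left out, as none was called without either control. With 1 sample left out, the day 7 log2 fold change of *Ret* was between -0.39 and 0.028 and that of *Kitl* between -0.59 and 0.020. The day 7 differences relative to markers likewise crossed 0, from -0.35 to 1.32 for *Kitl*, -0.37 to 0.0042 for *Gfra1* and -0.49 to 0.47 for *Kit* (0.0055 on estimated counts), and in adult testis the difference of *Gfra1* went from -1.14 (without the first labelled knockout) to 0.93. The cause was not tested. In *Fgf2* a pseudocount of 1 gave an adult log2 fold change of 2.37 by limma, since that scale understates low genes.

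Same-numbered samples did not deviate together (r = 0.03 at day 7 and 0.0062 to 0.027 in adult testis), and in adult testis not every sample correlated best with its own number. With 2 samples per group, deviations from the group mean mirror each other. The day 7 correlations therefore share the same size and differ only in sign, so they say little about pairing. With the replicate number as a block, 0 day 7 and 7 adult niche genes were called, and 12212 genes in all instead of 12969 in adult testis.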

Other observations

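Other ligands that niche cells make were followed in the same samples. In adult testis all 7 tested ligands of that list rose (edgeR, adjusted p under 0.05), where 81.5% of all genes were called and 40.9% were higher. *Wnt5a* and *Inhba* reached 0.5 FPKM in the labelled knockouts alone, so that they could hardly count as lower, and the eighth ligand, *Lif*, was under the filter. The other 5 tested ligands all rose, where 37.8% did among the genes that reached 0.5 FPKM in at least 1 sample of each group. The largest values were those of *Wnt5a* at 4.68, *Inhba*, an activin subunit, at 4.48, *Igf1* at 4.44 and *Wnt6* at 4.24 on the log2 scale, and those of *Bmp4*, *Vegfa* and *Nrg1* lay between 1.42 and 3.50. *Igf1* was at 0.89 to 0.93 FPKM in the controls and at 60.2, 21.6 and 22.6 in the testes labelled knockout. At day 7 none of the 8 was called by edgeR, and on TMM-scaled counts 3 lay higher and 2 lower in both knockout samples, where 24.8% and 26.1% of all genes did. *Igf1* was at 3.37 and 3.56 FPKM in the *Rnf20Flox/Flox* cultures and at 13.3 and 7.13 in the *Amh-Rnf20-/-* cultures (log2 fold change 1.61, adjusted p = 0.172). *Wnt6* and *Bmp4* also lay higher, with log2 fold changes of 1.33 and 1.30 (adjusted p = 0.266 and 0.188). *Vegfa* was at 109.1 and 109.5 FPKM in the controls and at 61.8 and 64.7 in the knockouts (-0.73, adjusted p = 0.119), and *Lif* at 22.8 in both controls and at 10.4 and 13.6 in the knockouts (-0.89, adjusted p = 0.141).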
